A study of Mus musculus with 109 samples.

Results

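Bait B30 is a HindIII fragment beside Fam43a on mouse chromosome 16, and the contacts described here were read from it in 7 libraries of 4C-seq, out of 109 in the series. In 4C-seq, crosslinked chromatin is cut with a restriction enzyme, here HindIII, and religated, so that fragments that lay close together in the nucleus become joined. A second cut, here with DpnII, and inverse PCR from 1 chosen fragment, the bait, then show the HindIII sites to which it had been joined. The cells were C127, a mouse mammary line, and the study compares the timing of domain and long-range contact formation in early G1 with that of replication timing. The 7 libraries were selected on their reads, because the titles do not match the bait read: of the 39 columns titled Ch16, Ch17 or 1.5hrs, these had the highest percent of reads within 100 kb of the bait primer. They held 7.65% to 13.5% of their reads there, and the highest of the other 32 columns held 0.217%. This share chose the libraries and is given as a description only.

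The libraries are lettered by falling share. Library A is titled Ch17.B50 at 0.5 h after mitosis, B is titled Ch17.B76 at 0.5 h, and C is titled Ch16.B41 at 1.5 h. Library D is titled Ch16.B46 at 1 h, E is titled Ch16.B48 at 0.5 h, F is titled Ch16.B30 at 2 h, and G is titled Ch8.B53 at 1.5 h. F alone carries the title of the bait that was read, so no title is used here as a time or a condition, and each library is given by its letter. The sample labels under all these titles describe cultures of the same line released from a nocodazole block at mitosis. No group below is a replicate set of 1 known condition, and the spread between libraries includes whatever differs between them. Choosing the columns by reads within 50 kb or 200 kb gave the same 7.

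Libraries A to E held 2765889, 3301246, 1506835, 1432325 and 2749821 reads. F held 223239 and G held 244438, so the last 2 were the shallowest. Reads are PCR products without molecular identifiers, and a captured site, a HindIII site with at least 1 read, is therefore used beside the read number. C and F shared captured sites on other chromosomes more than other pairs did: 26.0% of the smaller library's sites were in both, 10.2 times the number chance gives, against 1.79 to 2.70 times in the other 20 pairs. Whether they share material is not known, and tests are also given with both taken as 1. Library G stood apart in several measures and its values are given beside each result.

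Mammalian chromosomes fold into topologically associating domains, stretches of up to a few megabases within which sites touch each other more than sites outside. On a larger scale, gene-rich and gene-poor regions tend to lie with their own kind, in the compartments called A and B, which largely match early and late replication. Contacts within a chromosome usually outnumber those with others and fall with distance. The other 3 baits of chromosome 16 used for comparison, B41, B46 and B48, were found in the same 39 columns by the same measure, with 7 libraries each.

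The bait lies between genes in mm9, in no annotated exon. The primer is printed first, followed by 100 bases around the HindIII site it reads, at chr16:30595223-30595322 on the plus strand, with the HindIII site in capitals.
B30 primer: cggaaactcagcggtaaagc
B30 bait: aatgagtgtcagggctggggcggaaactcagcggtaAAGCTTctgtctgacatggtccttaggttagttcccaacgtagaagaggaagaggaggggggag
The primer matches mm9 once, at chr16:30595243-30595262. The HindIII site is at 30595259. The primer ends 4547 bp before the start of Fam43a (30599809 to 30602883, plus strand, ENSMUSG00000046546.3). There are 9 protein-coding genes within 500 kb. B41 (40919975) had none in such a window and lies in a region of 37.5% GC. B46 (45838128) lies in Phldb2, a microtubule-anchoring protein gene, and B48 (48602104) in Morc1, a gene of male germ cells.

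Near the bait, contacts ran mostly to 1 side. Of the reads 0.1 to 2 Mb from the bait, library A held 73.7% on the distal side at 0.1 to 0.8 Mb and 11.5% at the same distance toward the centromere. The distal shares were 71.2% in B, 67.9% in C, 67.9% in D, 59.2% in E, 50.2% in F and 29.0% in G. The centromere shares were 11.9%, 13.7%, 13.8%, 16.6%, 19.0% and 24.4% in the same libraries. The distal side was higher in 7 of 7, by a ratio of 6.41 in A and 1.19 in G. B30 thus held more reads toward the end of the chromosome than toward the centromere in each library, and the difference was smallest in G.

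Over the whole 2 Mb the centromere side held 15.6% of these reads in A, 18.1% in B, 20.1% in C, 19.6% in D, 27.2% in E, 32.5% in F and 49.1% in G. At the other baits the centromere share had medians of 54.7% (B41, range 49.0% to 57.7%), 35.1% (B46, 31.1% to 49.7%) and 62.3% (B48, 50.1% to 68.0%). Libraries F and G lie within the range of B46, and G just inside that of B41, while A to E lie below the ranges of all 3. These sides were not tested between baits.

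**Figure D1:**
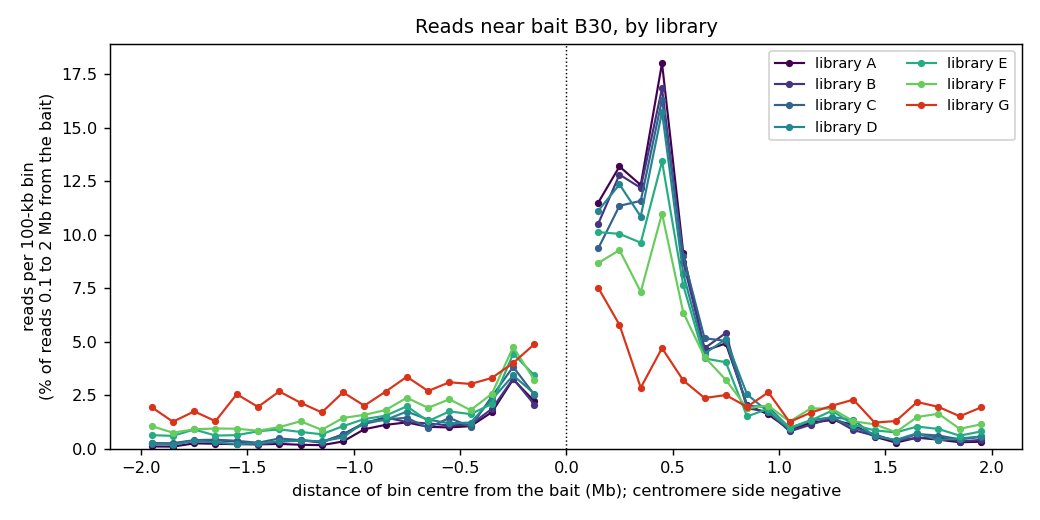
Reads in 100-kb bins 0.1 to 2 Mb from bait B30, as percent of the reads in that range, against the distance of the bin centre from the bait in Mb, 1 line per library. The bin centred 0.45 Mb distal is the highest in A to F, at 11.0% to 18.03%, while G is at 4.71% there.

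The block of high contact covered Xxylt1 and Acap2. Xxylt1, which the annotation used lists as AI480653, encodes a xylosyltransferase that extends sugars on Notch receptors, and Acap2 encodes a GTPase-activating protein of Arf6. The 100-kb bin over both (chr16:30995259-31095258) held 18.03% of the reads 0.1 to 2 Mb away in A, 16.9% in B, 16.3% in C, 15.8% in D, 13.4% in E, 11.0% in F and 4.71% in G. Its level was also set against the one its distance predicts, as log2 observed over expected reads per site. The expected level was a straight line of log2 reads per site on log2 distance, fitted in each library to both sides together. On this scale its median was 2.20, above 0 in 7 of 7. By percent of reads, the bin was higher than those nearer to the bait on that side in A to F. In G it was lower than the 2 nearest.

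The next bins lay on each side of it. The bin within Acap2 (31095259-31195258) had a median log2 observed over expected of 2.06, from 0.28 in G to 2.43 in A. The bin over the part of Xxylt1 nearest the bait (30895259-30995258) had a median of 1.48 and was above 0 in 6 of 7, with G at -0.30. Apod, the gene of a lipid carrier protein (31295259-31395258), had a median of 1.46, and the bin of Ppp1r2, an inhibitor of protein phosphatase 1 (31195259-31295258), had a median of 0.98, each above 0 in all but G. Beyond, the bin of Dlg1 and Mfi2 (31795259-31895258), a scaffold protein gene and the melanotransferrin gene, had a median of 1.07 and was above 0 in 7 of 7.

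The lowest near bins were all on the centromere side and overlapped no protein-coding gene. They lay at 30395260-30495259 with a median of -2.09, at 29095260-29195259 with -1.65, and at 30095260-30195259 with -1.25. The first was below 0 in 7 of 7 and ran from -2.52 in A to -0.01 in G. The nearest of these 3 bins is closer to the bait than the Xxylt1 bins are, and in A to F it held fewer reads (2.06% to 3.43%) than the bin over Xxylt1 and Acap2. In G both levels were similar, at 4.90% and 4.71%.

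Printed next are the 3 HindIII sites with the most reads 0.1 to 2 Mb from the bait, and, for comparison, a site nearer to the bait that ranked below 2 further Xxylt1 sites. The 3 lie in Xxylt1, at chr16:30986648-30986687, chr16:31077533-31077572 and chr16:30970686-30970725 (mm9, plus strand), and the nearer site lies between genes at chr16:30800142-30800181. HindIII sites are in capitals.
Xxylt1 site 1: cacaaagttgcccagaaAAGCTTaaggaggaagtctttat
Xxylt1 site 2: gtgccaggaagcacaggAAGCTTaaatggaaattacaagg
Xxylt1 site 3: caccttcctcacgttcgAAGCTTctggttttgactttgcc
Intergenic site: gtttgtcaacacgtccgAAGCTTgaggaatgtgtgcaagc
Site 1, 391.4 kb from the bait, took 0.626% of all reads in A, 0.499% in B, 0.553% in C, 0.512% in D, 0.270% in E, 0.192% in F and 0.0671% in G. Of the 8 sites with the most reads between 100 kb and 2 Mb, 6 lay in Xxylt1, and all 8 were on the distal side and were captured in 7 of 7 libraries. The intergenic site had a median of 0.309%. In the 21 libraries of B41, B46 and B48, site 1 had a read in 17.

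The neighbouring genes were examined from a fixed list, as reads in 100 kb around each start site per 10000 reads of the library. Next to the bait, Fam43a, Lsg1 (a GTPase of ribosome assembly) and Tmem44 had medians of 916.9, 909.3 and 782.0, which the choice of libraries fixes. On the distal side, Apod had 218.8 in A, 202.8 in B, 189.1 in C, 193.6 in D, 105.9 in E, 79.96 in F and 54.41 in G. Ppp1r2 had a median of 183.9 and Acap2 of 135.1. Bdh1, a ketone body enzyme gene, had 40.1 and Dlg1 24.6.

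On the centromere side, Atp13a3, a cation transport ATPase gene, had a median of 108.7, from 80.43 in G to 132.4 in A. It lies at -0.21 Mb, much closer than Apod at 0.72 Mb, and had fewer reads in A to E but more in F and G. Gp5 (a platelet glycoprotein gene) had 70.5, Lrrc15 61.9 and Cpn2 (a carboxypeptidase subunit gene) 61.8. Hes1, a repressor that answers to Notch, had a median of 38.5 at -0.53 Mb, and Opa1, a mitochondrial fusion gene, had 27.0 at -1.02 Mb. Opa1 was within 21.45 to 38.33 in the 7 libraries, with the highest value in G. Reads per gene depend on the number of HindIII sites in the window, 25 at Hes1 and 35 at Apod.

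The fall of reads with distance differed between libraries. The slope of log2 reads per site on log2 distance was -1.61 in A, -1.41 in B, -1.36 in C, -1.43 in D, -1.09 in E, -0.90 in F and -0.55 in G. The share of chromosome 16 reads beyond 100 kb that lay within 2 Mb was 64.0% in A, 52.7% in B, 49.0% in C, 55.3% in D, 36.3% in E, 29.0% in F and 21.1% in G. A to D were above every library of the other 3 baits, which reached 34.8% (B41), 34.7% (B46) and 36.5% (B48). E, F and G lay within or near those ranges.

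On average the share within 2 Mb was 43.9% at B30, 26.0% at B41, 27.8% at B46 and 26.2% at B48. The differences were 17.9 percentage points from B41 (exact two-sided permutation test, adjusted p = 0.0490 over 12 tests), 16.1 from B46 (exact permutation, adjusted p = 0.0571) and 17.7 from B48 (exact permutation, adjusted p = 0.0490). With 7 libraries against 7, the smallest p these permutations can give is 0.000583. The calls were marginal: leaving out library A, B, C, D or E gave adjusted p = 0.0559 to 0.0979 against B41 and against B48 by the exact permutation test, while leaving out F or G gave adjusted p = 0.0373 and 0.0117 against B46. Counted in captured sites in place of reads, the difference was 0.04 percentage points from B41 and -0.05 from B48, and neither passed (exact permutation, adjusted p = 0.939). With C and F averaged, all 3 differences passed (16.9 to 18.7 points, exact permutation, adjusted p = 0.0476 to 0.0490), and with reads per site capped the call passed against B46 alone (6.21 percentage points, exact permutation, adjusted p = 0.0122).

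The share of reads on chromosome 16 did not separate the baits. Of the reads beyond 100 kb, 71.0% in A, 73.4% in B, 72.8% in C, 63.1% in D, 68.8% in E, 70.6% in F and 86.7% in G were on chromosome 16. G was the highest, and the other 6 ran from 63.1% to 73.4%. The medians were 71.0% at B30, 69.0% at B41, 70.3% at B46 and 67.3% at B48, and the ranges overlapped. Differences of means were 2.72 points from B41, 0.91 from B46 and 5.21 from B48 (exact permutation tests, adjusted p = 0.551, 0.754 and 0.409). All 3 turned negative, and none passed, with captured sites (-3.36, -3.38 and -2.39), with capped reads (-6.17, -4.18 and -0.080) and beyond 1 Mb (-3.90, -4.75 and -1.51), so no direction is given. The shallowest library of B46, with 186019 reads, was at 86.0%, and that of B48, with 182669 reads, at 82.4%, which is near G. Other shallow libraries were further from G. F was at 70.6%, the next shallowest of B46 (268806 reads) at 70.5% and that of B48 (191295 reads) at 61.3%. The 2 shallowest of B41 (273020 and 278667 reads) were at 64.5% and 75.9%. The part of depth in this was not tested.

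**Figure D2:**
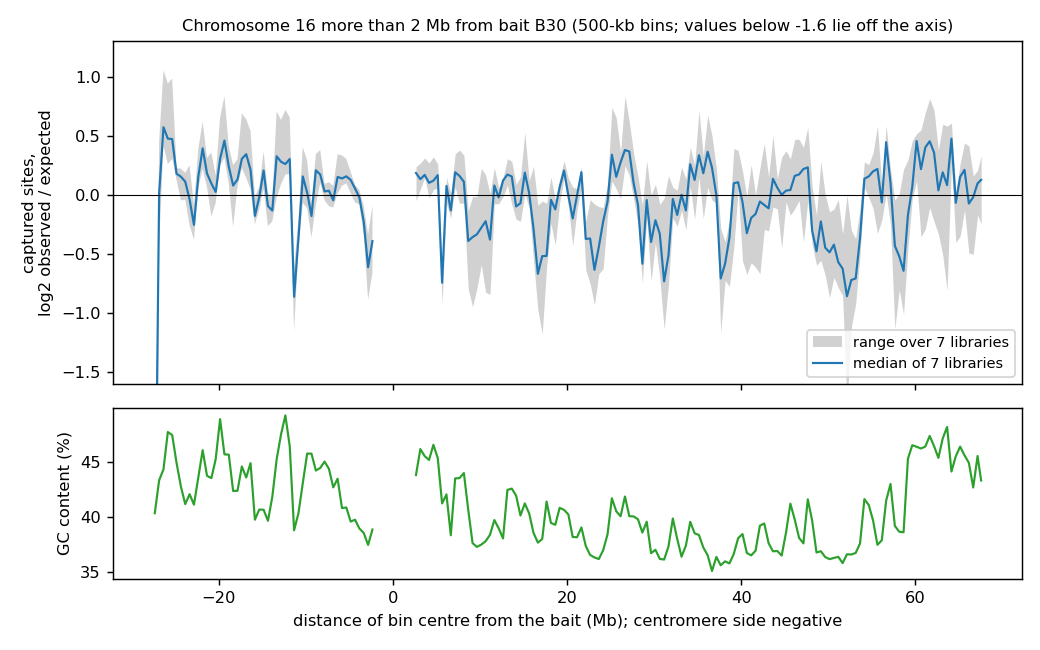
Captured HindIII sites in 500-kb bins of chromosome 16 more than 2 Mb from bait B30, as log2 observed over expected for the distance (upper axis; line, median of 7 libraries; grey, range), and GC content of the same bins in percent (lower axis), against distance from the bait in Mb. The median and the GC content rise and fall together over much of the chromosome (rho of each library 0.26 to 0.62), and the first bin, at -3.42, lies off the axis.

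Farther along chromosome 16, B30 was captured more at GC-rich and gene-rich bins. The profile is the log2 ratio of captured sites in a 500-kb bin to the number that distance predicts, with every library thinned to equal captured sites, over 182 bins more than 2 Mb away. Here and below, genes in a bin are protein-coding genes counted by midpoint, so a bin within a long gene can count 0. Bins with a count of 0 had a median of -0.25 (57 bins, 11 above 0). Bins with 1 to 3 genes had a median of 0.08 (60 bins, 38 above 0), and those with 4 or more 0.16 (65 bins, 49 above 0). The 20 highest bins had a median GC content of 44.9% and 7 genes, the 20 lowest 37.4% and 0 genes, and all bins 40.1% and 2 genes. Profiles of library pairs had a rank correlation of 0.33 to 0.92 over bins (median 0.73, 21 pairs), with the pairs that include G at 0.33 to 0.58 and the others at 0.69 or above. Bins share libraries and distance fits, so these correlations are descriptions.

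Named bins were taken at least 2 Mb apart, so that high bins beside a named one were passed over. The highest bin was chr16:4000001-4500000, with Crebbp, a histone acetyltransferase gene, and Adcy9, an adenylyl cyclase gene, 26.3 Mb away toward the centromere. Its values were 0.53 in A, 0.69 in B, 0.75 in C, 1.06 in D, 0.46 in E, 0.57 in F and 0.42 in G, above 0 in 7 of 7. At the other end, 64.2 Mb away, the bin of the kinase gene Dyrk1a with Ttc3 and Hlcs (94500001-95000000) had a median of 0.48, and was above 0 in 7 of 7.

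Other high bins held Litaf and Gspt1, the latter a translation termination factor gene (11000001-11500000, median 0.46), Urb1 and Synj1, the latter a phosphoinositide phosphatase gene (90500001-91000000, 0.46), and N6amt1 and Usp16, the latter a deubiquitinase gene (87000001-87500000, 0.45). Abat, which encodes the enzyme that breaks down GABA, and Usp7, a deubiquitinase gene, lay in a bin at 0.39 (8500001-9000000), and Tomm70a, a mitochondrial import gene, in one at 0.38 (57000001-57500000). These 5 bins were above 0 in 7 of 7, with GC contents of 41.5% to 46.4%. The last of the 8 named bins, within the cell adhesion gene Cadm2 (66500001-67000000, median 0.37, above 0 in 7 of 7), differs from the others in having 36.5% GC.

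Among the lowest bins, chr16:82500001-83000000 and chr16:61500001-62000000 overlapped no protein-coding gene. The first was at -1.07 in A, -0.86 in B, -1.46 in C, -1.78 in D, -0.54 in E, -0.48 in F and -0.003 in G, and the other had a median of -0.73. The bin of immunoglobulin lambda constant genes and olfactory receptors (19000001-19500000) had a median of -0.86, and the bin of the stefin cluster, Kpna1 and the calcium receptor gene Casr (36000001-36500000) of -0.74. The first bin of the chromosome (3000001-3500000) was at -3.42. These bins have fewer HindIII sites with a read in any of the 109 columns than the table's 73.6%, except the bin starting at 61500001 with 75.9%: the shares were 9.02%, 62.5%, 65.4% and 69.3% in the bins starting at 3000001, 19000001, 36000001 and 82500001. In the 8 highest bins they were 84.3% to 97.2%. Counting only sites with a read in any column, the bin of immunoglobulin genes was at -0.36, that of the stefin cluster at -0.26, the gene-free bins at -0.53 (82500001) and -0.54 (61500001), and the high bin of Litaf at 0.25. The bin starting at 3000001 then had too few sites for a value, and the other named bins kept their sign and moved by less than the spread between libraries.

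The gene list for the rest of chromosome 16 gave the following levels, as the median of the 500-kb bin that holds each start site. Of the genes in or beside the block that is deleted in human DiGeorge syndrome, Dgcr8 lay in a bin at 0.26 (above 0 in 7 of 7), Tbx1 and Hira in one at 0.30 (7 of 7), and Crkl in one at 0.33 (6 of 7). Of the adhesion and axon guidance genes of gene-poor stretches, Lsamp was at -0.38 (1 of 7), Ncam2 at -0.42 (0 of 7), Robo1 at -0.06 (3 of 7) and Robo2 at 0.14 (6 of 7). Of the distal genes, the transcription factor gene Runx1 was at 0.36 (6 of 7), App, the amyloid precursor gene, at 0.16 (6 of 7), Sod1, superoxide dismutase, at 0.07 (6 of 7), Adamts1, a secreted protease gene, at 0.20 (5 of 7), and Ets2 and Erg at 0.15 (5 of 7).

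Genes between the bait and the middle of the chromosome were mostly near the level of their distance. Gsk3b, a kinase gene, was at 0.16 (6 of 7), Kalrn at 0.10 (5 of 7) and Adcy5 at 0.12 (7 of 7), while Gap43 was at 0.08 (6 of 7) and Zbtb20 at -0.02 (2 of 7). Phldb2, where bait B46 lies, was at 0.19 (7 of 7), and Morc1, where B48 lies, at -0.52 (0 of 7).

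Single far sites show the depth of these libraries. Of 29749 HindIII sites on chromosome 16 more than 2 Mb from the bait, 3417 were captured in 7 of 7 libraries and 6840 in none. The 3 below had the highest median reads among those captured in all and lay in Mylk, the gene of myosin light chain kinase (sites 1 and 2), and Zfp148, a zinc finger gene; they are at chr16:34837565-34837604, chr16:34753904-34753943 and chr16:33401612-33401651 (mm9, plus strand), with the HindIII site in capitals.
Mylk site 1: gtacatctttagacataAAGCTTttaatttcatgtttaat
Mylk site 2: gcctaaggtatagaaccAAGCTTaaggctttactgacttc
Zfp148 site: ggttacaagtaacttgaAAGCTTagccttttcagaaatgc
In RPM, reads scaled by the library's total, the Zfp148 site, 2.81 Mb distal, was at 197.0 in A, 97.24 in B, 295.3 in C, 60.7 in D, 107.3 in E, 255.3 in F and 965.5 in G. The values of 1 site differed several-fold between libraries, which the 500-kb bins even out. The other sites of this rule lay in Zfp148, Slc12a8 and Tfrc, the transferrin receptor gene, 11567 bp from 1700021K19Rik and 331056 bp from Fgf12.

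The relation to GC content separated B30 from B41 and B48 but not from B46. The rank correlation of the chromosome 16 profile with GC content was 0.59 in A, 0.59 in B, 0.58 in C, 0.62 in D, 0.53 in E, 0.54 in F and 0.26 in G. At B41 it ran from -0.50 to 0.20 (median -0.27), at B48 from -0.47 to -0.05 (median -0.33) and at B46 from 0.003 to 0.65 (median 0.60). The 7 libraries of B30 lay above all 7 of B41 and all 7 of B48, and overlapped with B46.

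The difference of means was 0.73 from B41 and 0.83 from B48 (exact two-sided permutation tests, adjusted p = 0.00350 for both, from the smallest p the permutations allow). From B46 it was 0.04 (exact permutation, adjusted p = 0.754), which does not show that the baits act alike. Both calls passed without thinning, with other bins, other site sets or reads, with C and F as 1, and without any 1 library, at 0.72 to 0.78 against B41 and 0.82 to 0.88 against B48 in the last case. Some shallow libraries of the other baits also stood at an end of their range. The shallowest of B46 was at 0.003, and the 2 shallowest of B41 were at 0.20 and 0.19. The next shallowest of B46 was at 0.41, and F, with fewer reads than G, was at 0.54. The part of depth was not tested.

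**Figure D3:**
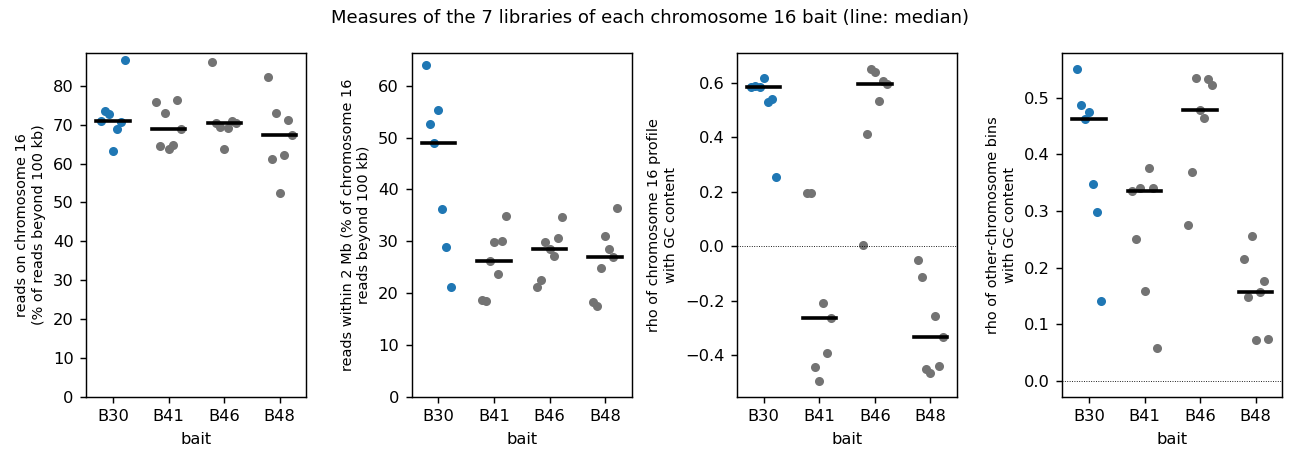
The 4 measures compared between the chromosome 16 baits: percent of reads beyond 100 kb on chromosome 16, percent of those chromosome 16 reads within 2 Mb, and the rank correlation with GC content of the chromosome 16 profile and of the other-chromosome bins. Each point is a library, 7 per bait, and the line is the median; the chromosome 16 correlation is 0.26 to 0.62 at B30 and at most 0.20 at B41 and B48.

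The same division appeared in the profiles themselves. Over the 158 bins more than 2 Mb from all 4 baits, the median profile of B30 had a rank correlation of 0.84 with that of B46, -0.32 with B41 and -0.29 with B48. Pairs of single libraries ranged from 0.07 to 0.87 with B46 (median 0.69), from -0.67 to 0.41 with B41 (median -0.17) and from -0.57 to 0.28 with B48 (median -0.16). The bin of Crebbp, highest from B30, was at 0.28 from B46, -0.39 from B41 and -0.55 from B48. The bin of Dyrk1a was at 0.43 from B46, -0.26 from B41 and -0.10 from B48. The gene-free bin at 82500001 was at -0.60 from B46, 0.03 from B41 and -0.01 from B48 by their medians, and the bin of the stefin cluster was low from all 4, at -0.57 to -0.74.

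On other chromosomes, captured sites were spread thinly. Their numbers were 85441 in A, 24316 in B, 14713 in C, 25982 in D, 28091 in E, 20256 in F and 4945 in G. Of 791535 sites, 15 were captured in 7 of 7 libraries and 625299 in none. The 6 of those 15 with the most reads lay in Sfi1 on chromosome 11, at 3032987 to 3088240, and had a read in 92 to 100 of the 109 columns of the table, of all baits.

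By chromosome, capture per HindIII site was highest on 19, 15, 17, 11 and 10. Relative to all other chromosomes together, chromosome 19 had log2 values from 0.72 to 1.07 in the 7 libraries (median 0.82). The medians were 0.56 on chromosome 15, 0.55 on 17, 0.45 on 11 and 0.40 on 10, each above 0 in 7 of 7. The X chromosome was lowest, from -1.36 to -0.86 (median -1.12), followed by 14 at -0.66, 12 at -0.58 and 18 at -0.43, each below 0 in 7 of 7. The other 3 baits had nearly the same order: chromosome 19 had medians of 0.71, 0.80 and 0.66 at B41, B46 and B48, chromosome 14 had -0.61, -0.69 and -0.65, and the X chromosome had -0.95, -1.17 and -0.82. These differences between chromosomes were thus seen from each of the 4 baits and were not tested between them.

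**Figure D4:**
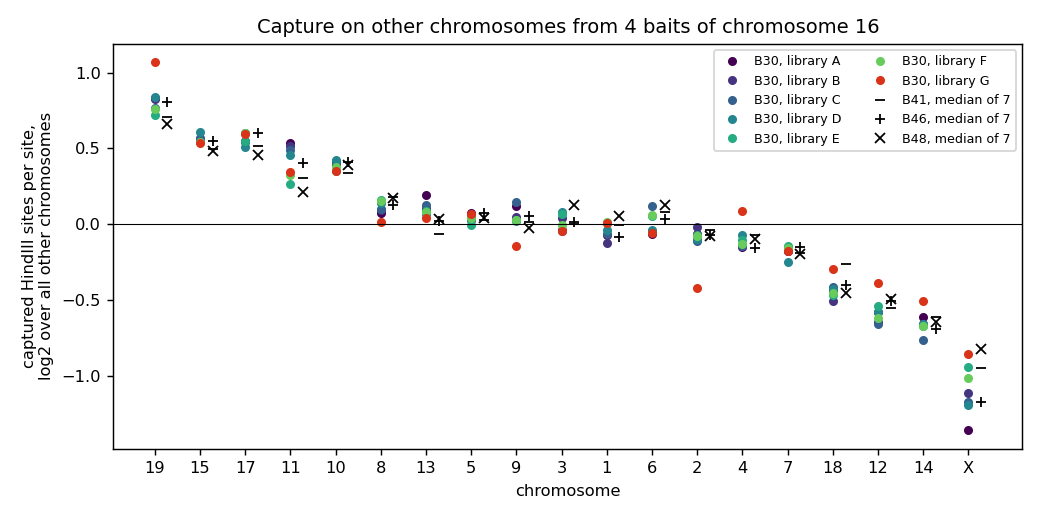
Captured HindIII sites per site on each other chromosome, as log2 over all other chromosomes together, for the 7 B30 libraries (coloured points, 1 colour per library) and the medians of 7 libraries at B41, B46 and B48 (black marks), with chromosomes ordered by the B30 median. Chromosome 19 is highest and X lowest, at medians of 0.82 and -1.12 for B30, and the marks of the other baits lie close to the points.

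Within other chromosomes, capture rose with GC content. In 2-Mb bins sorted by GC content into 5 groups of 245, the median log2 capture per site was -0.71 in the lowest group (35.9% to 38.7% GC, 2 genes per bin), then -0.27, -0.04 and 0.18, and 0.56 in the highest (44.7% to 51.7% GC, 30 genes). The lowest and highest groups were at -1.27 and 0.88 in A, and at -0.18 and 0.21 in G. With equal numbers of captured sites, the rank correlation with GC content was 0.55 in A, 0.49 in B, 0.46 in C, 0.48 in D, 0.35 in E, 0.30 in F and 0.14 in G.

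At B48 this correlation ran from 0.07 to 0.26, at B41 from 0.06 to 0.38 and at B46 from 0.27 to 0.54. B30 was higher than B48 by 0.24 on average (exact permutation test, adjusted p = 0.0163). The differences from B41, 0.13, and from B46, -0.06, did not pass (exact permutation, adjusted p = 0.155 and 0.516). Without library G the difference from B41 was 0.17 and passed (exact permutation, adjusted p = 0.0240), and with reads in place of captured sites it was 0.26 (adjusted p = 0.0332 by the exact permutation test).

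The bins of other chromosomes with the most capture per site lay in gene-dense regions. Apart from chromosome 11 at 2000001-4000000, which holds the Sfi1 sites (median log2 1.94), they were chromosome 19 at 4000001-6000000 (1.67), with Rela, a subunit of NF-kappaB, and Cfl1, the actin-binding cofilin, and chromosome 17 at 24000001-26000000 (1.64), with the tuberous sclerosis gene Tsc2 and the polycystin gene Pkd1. Chromosome 15 followed at 98000001-100000000 (1.64), with Wnt1 and the tubulin genes Tuba1a and Tuba1b, and then chromosome 10 at 126000001-128000000 (1.61). Chromosome 15 at 80000001-82000000 (1.60), chromosome 11 at 4000001-6000000 (1.57) and chromosome 19 at 6000001-8000000 (1.53) completed the 8. All 8 were above 0 in 7 of 7 libraries.

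A test across 1216 such bins compared the reads of B30 with the mean of B41, B46 and B48. By edgeR's quasi-likelihood test with Benjamini-Hochberg adjustment, 44 bins passed, 3.62% of those tested: 27 were higher (2.22%) and 17 lower (1.4%) from B30. The higher bins had a median GC content of 46.2% and 41 genes, the lower ones 40.7% and 8 genes, and all tested bins 41.5% and 12 genes. The test picked these bins on the same reads, so their levels by bait only describe them. In the 27 higher bins, the medians of B41 and B48 were below that of B30 in 27 of 27, and that of B46 in 19 of 27. In the 17 lower bins, the median of B41 was above that of B30 in 17 of 17, and those of B46 and B48 in 13 of 17 each. The number of bins called depended on single libraries. It was 13 without A, 19 without B, 28 without C, 28 without D and 71 without G, and 90 with DESeq2.

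The largest rise was on chromosome 5 at 124000001-126000000, a bin that includes the lipoprotein receptor gene Scarb1. Levels are in CPM, reads scaled by the library's total over the tested bins after adjustment by edgeR's TMM factor. The bin held 2165 in A, 1039 in B, 1884 in C, 1459 in D, 785.1 in E, 862.1 in F and 882.1 in G. The medians of the other baits were 284.1 at B41, 1272 at B46 and 292.9 at B48. This bin was higher from B30 by 1.27 on the log2 scale (SE 0.26, edgeR adjusted p = 0.00191). All 7 libraries were above the medians of B41 and B48, and 4 of 7 were below that of B46.

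The other large rises lay on chromosome 11 at 100000001-102000000, with the keratin gene Krt14 and the signalling genes Stat3 and Stat5a (1.10, SE 0.24), and at 94000001-96000000, with the collagen gene Col1a1 and the integrin gene Itga3 (1.10, SE 0.23). They also lay on chromosome 14 at 20000001-22000000, with Vcl, which encodes vinculin of focal adhesions, and Plau, urokinase (1.06, SE 0.28), and on chromosome 9 at 64000001-66000000, with the kinase gene Map2k1 (1.04, SE 0.23). Their edgeR adjusted p values ran from 0.00284 to 0.0161, and the chromosome 14 bin lost its call without A (0.0753) or C (0.101). The bin with Stat3 held 1872 CPM in A and 846.1 in F, the lowest of B30, against medians of 532.0, 887.0 and 415.7 at B41, B46 and B48. Its level from B46 was thus close to the lowest B30 library.

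In 4 of the 5 largest falls, the value of 1 other bait set the difference. On chromosome 8 at 82000001-84000000, B41 had a median of 11680 CPM and B46 and B48 had 812.3 and 668.0, while B30 ranged from 389.6 to 1077 (edgeR adjusted p = 0.00117). On chromosome 4 at 34000001-36000000, B41 had 15910 and B30 534.5 to 1764, and on chromosome 2 at 144000001-146000000 B41 had 3755 and B30 211.7 to 1051. The B41 primer matches mm9 at 2 places, 1 of them beside a HindIII site, and the part of this in the B41 values was not tested. A bin of chromosome 18 had 11620 at B46 and 138.8 to 1094 at B30. The last of the 5, on chromosome 2 at 136000001-138000000, with the Notch ligand gene Jag1 and the synaptic gene Snap25, was lower than each of the other baits: B30 held 262.5 in A, 273.6 in B, 286.3 in C, 114.8 in D, 744.3 in E, 478.9 in F and 70.57 in G, against medians of 851.7, 752.3 and 818.7 (-1.25, SE 0.35, edgeR adjusted p = 0.0233). This call was lost without A, B, C or D (edgeR adjusted p = 0.0809, 0.0589, 0.0601 and 0.0808). With captured sites in place of reads, the differences on chromosomes 18, 8 and 4 shrank to -0.51, -0.54 and -0.16, and the last lost its call (edgeR adjusted p = 0.397).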

How the data were processed

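Per the labels, 4C-seq libraries of C127 cells were made with HindIII and DpnII and sequenced on an Illumina instrument. The values the authors deposited are raw counts of reads at HindIII sites. The submitters' processing notes name BWA 0.5.9 and mm9; the read filters are not given in the sources used here. Positions equalled the HindIII sites of mm9 on 21 of 21 chromosomes. Genes are from the GENCODE annotation of mm9; AI480653 was matched to Xxylt1 by a RefSeq synonym (GRCm38.p6).

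The members and lists were chosen with earlier results of these data known. Near bins were 100 kb, chromosome 16 bins 500 kb (at least 50 sites, beyond 2 Mb; lowess span 0.5, pseudocount 0.5), other bins 2 Mb (at least 200 sites), leaving out bins within 2 Mb of a bait. Libraries were thinned to 9496 captured sites on chromosome 16 and 4551 elsewhere, averaged over 10 draws, for the comparison between baits. Named regions were the highest and lowest by median (chromosome 16 bins at least 2 Mb apart), and for edgeR the 5 largest rises and falls past 0.05. Tests were exact permutations (3432) of means, adjusted over 12, and edgeR 4.0.16 (TMM, filterByExpr, R 4.3.3) on the deposited counts; DESeq2 1.42.0 was an alternative. Scripts were tested on simulated data. As titles do not settle conditions or cultures, p-values measure the spread between these libraries. Some genes of the lists and named bins are not reported here.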

Additional observations from a re-analysis of the deposited data

Results flagged for a closer look

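Of 66 sets of 7 library values, 8 had 1 library set apart from the rest by a gap large against the range, where chance gives about 1 in 20. The rank correlation of the chromosome 16 profile with GC content was 0.26 in library G, against a median of 0.58. Near the bait, the bin centred 350 kb distal, over the part of Xxylt1 nearest the bait, was at -0.30 in G against a median of 1.48. On other chromosomes G was set apart on 19 (1.07, median 0.82), on 2 (-0.42, median -0.08) and on 4 (0.089, median -0.13). The chromosome 16 bin of N6amt1 and Usp16 was at 0.009 in library E against a median of 0.45. Library C was lowest in the first bin of chromosome 16, at -6.48 against -3.42. Chromosome 7 was at -0.25 in library D against a median of -0.17. G has 4945 captured sites on other chromosomes, the fewest of the 7, and the part of this was not tested.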

How the results depend on the processing

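For the share within 2 Mb, against B41, B46 and B48 the differences were 17.9, 16.1 and 17.7 percentage points. Leaving out 1 library gave 14.6 to 21.7, 12.7 to 19.9 and 14.3 to 21.5. With captured sites the differences from B41 and B48 were 0.045 and -0.045, the last of opposite sign; with capped reads they were 2.95 and 4.39, and 6.21 from B46. Within 5 Mb the difference from B46 was 14.9 and with C and F averaged 16.9, and both passed (exact permutation, adjusted p = 0.0182 and 0.0490). The cause was not tested.

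The correlation of other-chromosome bins with GC content differed from B41 by 0.10 to 0.17 when 1 library was left out, and by 0.26 with reads, chosen after seeing the data like the averaging of C and F. The 44 bins called by edgeR were 90 with DESeq2, which called all 44, 348 with captured sites (38 of the 44), 43 with C and F summed (41 of the 44), and 13 to 71 when 1 library was left out. Bins of 5 Mb gave 66, out of fewer bins, so that number cannot be compared with the 44. The 10 named bins kept their direction in each 2-Mb setting that tested them, but 7 of 120 such fits lost the call, in the chromosome 14 rise and in the falls on chromosomes 4 and 2 (136000001). Of the 13 named chromosome 16 bins, 12 could be given over sites with a read in any column and kept their sign, and 3 moved by more than the spread between libraries (0.25 from 0.46 at 11000001, -0.36 from -0.86 at 19000001, -0.26 from -0.74 at 36000001). The share of reads on chromosome 16 passed in no setting but changed sign in several: -3.36, -3.38 and -2.39 with captured sites, -6.17, -4.18 and -0.080 with capped reads, and -3.90, -4.75 and -1.51 beyond 1 Mb, against B41, B46 and B48, and -1.47 against B46 without G. Of the other comparisons between baits, none changed its call. No paired analysis was possible because the titles, and with them the replicate numbers, do not match the bait that was read. Library G had 4945 captured sites on other chromosomes, and the part of this number in its profile there was not tested.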

Other observations

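Contacts between the baits themselves were read in both directions, in windows of 1.5 Mb around the other bait. From B30, the window of B46 was at 0.06 (above 0 in 6 of 7 libraries), that of B41 at -0.33 (2 of 7) and that of B48 at -0.20 (0 of 7). From the other side, the window of B30 was at 0.29 from B46 (7 of 7), -0.26 from B41 (2 of 7) and -0.39 from B48 (2 of 7). By medians and without a test, B30 and B46, 15.2 Mb apart, were above the level of their distance in both directions. So were B41 and B48, 7.68 Mb apart (0.08 from B41, 5 of 7, and 0.32 from B48, 7 of 7). The window of B46 was also above that level from B41 (0.03, 7 of 7) and from B48 (0.09, 7 of 7). In the reverse direction, from B46, the windows of B41 and B48 were at -0.05 (2 of 7) and -0.02 (3 of 7).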
